A study of Mus musculus with 4 samples.

Results

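Desmosome genes encode the parts of the junction that joins neighbouring keratinocytes, and open chromatin around 10 of them was described here: Dsg1a, Dsg2, Dsg3, Dsc1, Dsc2, Dsc3, Pkp1, Pkp3, Dsp and Perp. The list was made from the known parts of the junction and not from measured values, and it holds 10 of 21910 protein-coding genes in the GENCODE annotation of mm10. Peaks of the 4 libraries were merged into regions wherever they shared at least 1 bp, and every region overlapping 1 of these genes, extended by 10 kb on each side, was kept. This gave 64 regions of 82641 in the whole series. They form 65 pairs of gene and region, because chr18:20554140-20555181 lies within reach of both Dsg2 and Dsg3.

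A desmosome holds cells together through desmosomal cadherins, the desmogleins (Dsg) and desmocollins (Dsc), which bind their partners on the next cell. Inside the cell, plakoglobin and the plakophilins (Pkp) connect the cadherin tails to desmoplakin, and desmoplakin anchors the keratin filaments. The cadherins change as a keratinocyte matures: Dsg3 and Dsc3 are typical of the basal layers, whereas Dsg1 and Dsc1 are typical of the upper layers. Perp is a small membrane protein needed for stable desmosomes in the epidermis and a target of the p53-family factor p63.

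ATAC-seq, in which the Tn5 transposase cuts and tags open chromatin, had been carried out on keratinocytes sorted from mouse skin. All mice had received a cream with 5% imiquimod (Aldara), which inflames the skin, for 8 days. WT was compared with Mapk8-KO, 2 libraries each, to ask where accessibility depends on JNK1, the kinase that Mapk8 encodes. Per the study's methods, the Mapk8-KO mice carried floxed Mapk8 alleles and a KRT14-Cre transgene, so that deletion is limited to cells in which the keratin 14 promoter is or was active. The controls were littermates, and the mice were females of 8-12 weeks. The sort kept EpCam+ CD49f-high cells and left out CD45+, CD31+ and CD140a+ cells, so the libraries favour basal keratinocytes. No untreated skin was among the samples, so no effect of imiquimod can be read. The labels do not say whether each library came from 1 mouse, and the spread between libraries may be partly technical. In such bulk libraries, fewer cells with an open region and less opening per cell cannot be told apart.

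Depth differed within each genotype. The lists held 49856 to 69927 intervals, and both replicate 1 libraries were deeper, at 1 (WT 1) and 1.12 (Mapk8-KO 1) against 0.694 (WT 2) and 0.646 (Mapk8-KO 2) relative to WT 1. The start site of Mapk8 itself was called in all libraries, with pileups of 96 and 73 fragments in WT and 109 and 90 in Mapk8-KO, and whether it lies in the deleted part is not stated, so it does not check the labels. Of 8 keratinocyte genes, 4 had a start-site region in every library and none lacked one in all 4. No start-site region was called at any of 6 leukocyte or 4 melanocyte genes. Among 3 endothelial genes only Kdr had one, called in 3 libraries, and among 3 fibroblast genes only Pdgfra, with pileups of 41 and 26 fragments in WT and 58 and 34 in Mapk8-KO. The start site of Krt14 had a pileup of 36 fragments in WT 1, no peak in WT 2, and pileups of 199 and 109 in Mapk8-KO 1 and 2. Summed over the 8 keratinocyte genes and scaled for depth, start-site pileup was 219 to 354 fragments in WT and 387 to 478 in Mapk8-KO. Without Krt14 the sum over the other 7 genes was 318 and 219 in WT and 300.0 and 218 in Mapk8-KO. The gap in these sums thus lay at Krt14. The Mapk8-KO mice carried the KRT14-Cre transgene, and its part in the Krt14 values was not tested. Start sites without a peak were left out of the sums. These were Krt14 in WT 2, Krt5 and Krt10 in WT 2 and Mapk8-KO 2, and Krt1 in Mapk8-KO 2. The part of depth and of these markers in the results that follow was not tested.

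Each of the 10 listed genes was open at its start site in every library. A start-site region (within 2 kb of the gene's annotated start) was called in all 4 libraries for 10 of 10 members, against 55% of coding genes. Over all regions of the members, 36 of 64 (56.2%) were called in all 4 libraries, beside 48.6% of all regions in the series. Another 10 were called in 3 libraries, 7 in 2 and 11 in 1 (17.2%, beside 21.7% of all regions). By position of the summit, the point of highest pileup, 37 lay in introns, 23 between genes, 3 in exons outside the coding sequence and 1 in a coding exon.

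The number of desmosome regions called differed more between replicates than between genotypes. WT 1 had peaks at 56 of the 64 and WT 2 at 43, while Mapk8-KO 1 had 55 and Mapk8-KO 2 had 45. The means were 49.5 ± 9.19 in WT and 50 ± 7.07 in Mapk8-KO (SD, n = 2 each; two-sided exact permutation test, p = 1, where the smallest p this design allows is 0.33). No desmosome region was called in both WT libraries and no Mapk8-KO library (2.17% of all regions were), and none was called only in both Mapk8-KO libraries (1.65%). Conversely, 5 regions (7.81%, beside 7.91% of all regions) were called only in both replicate 1 libraries, the deeper of each genotype, and none only in both replicate 2 libraries.

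**Figure D1:**
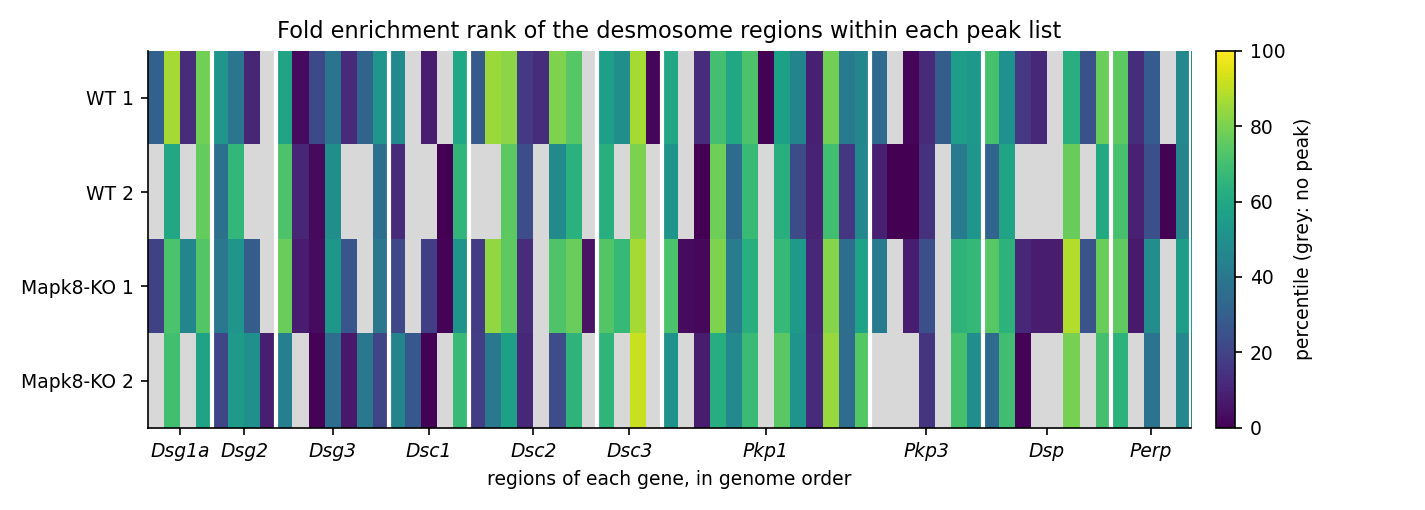
Each column is 1 region of the named gene and each row 1 library; the colour gives the percentile of the region's fold enrichment within that library's own peak list, and grey marks regions without a peak. The grey cells fall mostly in the replicate 2 rows, and no region is grey in both libraries of one genotype and coloured in both of the other; the region shared by Dsg2 and Dsg3 is drawn under both genes.

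To compare strength, 3 measures were used. The percentile of a region is the share of peaks in the same list with a lower fold enrichment. The summit pileup is the number of fragments over the summit, and the depth-scaled pileup divides it by the library's relative depth. Where a pair of values is given for a genotype, replicate 1 stands before replicate 2, and a log2 difference is always that of the pileup, Mapk8-KO minus WT. The 36 regions called in all 4 libraries had a median depth-scaled pileup of 58.5 and 53.3 fragments in WT and 59.6 and 58.8 in Mapk8-KO, above the 46.4 to 49.0 of all regions called in all 4. Their median percentiles were lower than those of all such regions in each library, for example 56.6 against 68.0 in WT 1. The local background under them was higher, with a median of 7.29 and 4.42 fragments in WT and 8.12 and 4.94 in Mapk8-KO, against 2.68 to 4.76 over all such regions. High pileups with a middling fold enrichment recur among the members, so the pileup and the percentile are given side by side.

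The strongest start site of the group was that of Dsc3. Its depth-scaled pileup was 160 and 145 fragments in WT and 178 and 210 in Mapk8-KO, and it ranked between the 80.3rd and the 91.5th percentile. The weakest by pileup was Dsc2, with 37.4 to 51.0 fragments, and the weakest by rank was Pkp3, which reached the 24.5th percentile at most. Behind Dsc3, the start sites of Dsg2 and Perp lay above those of Dsc1, Pkp3, Dsg1a and Dsc2 in every library, at 87 to 112 fragments. Those of Dsg3, Pkp1 and Dsp overlapped both sets, and below Dsc3 the neighbours in the order were not separated beyond the spread between libraries.

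The groups did not overlap at 4 of the 10 start sites, Dsc2, Dsc3, Dsp and Pkp1, and all 4 were higher in Mapk8-KO. Among all promoter regions (within 2 kb of any start site) the depth-scaled pileups of the groups did not overlap in 28.1%, higher in Mapk8-KO, and in 10.7%, higher in WT. The median log2 difference, Mapk8-KO minus WT, was 0.10 over the 10 start sites and positive in 8, against 0.09 over all promoter regions, of which 65.4% were positive. The difference at Dsc3 was 0.34 on the log2 scale (95% interval 0.02 to 0.67, limma unadjusted p = 0.037 and adjusted p = 0.441), and none of the 10 passed an adjusted p of 0.05. Such intervals draw mainly on the spread common to regions of like pileup, and not on a region's own libraries.

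**Figure D2:**
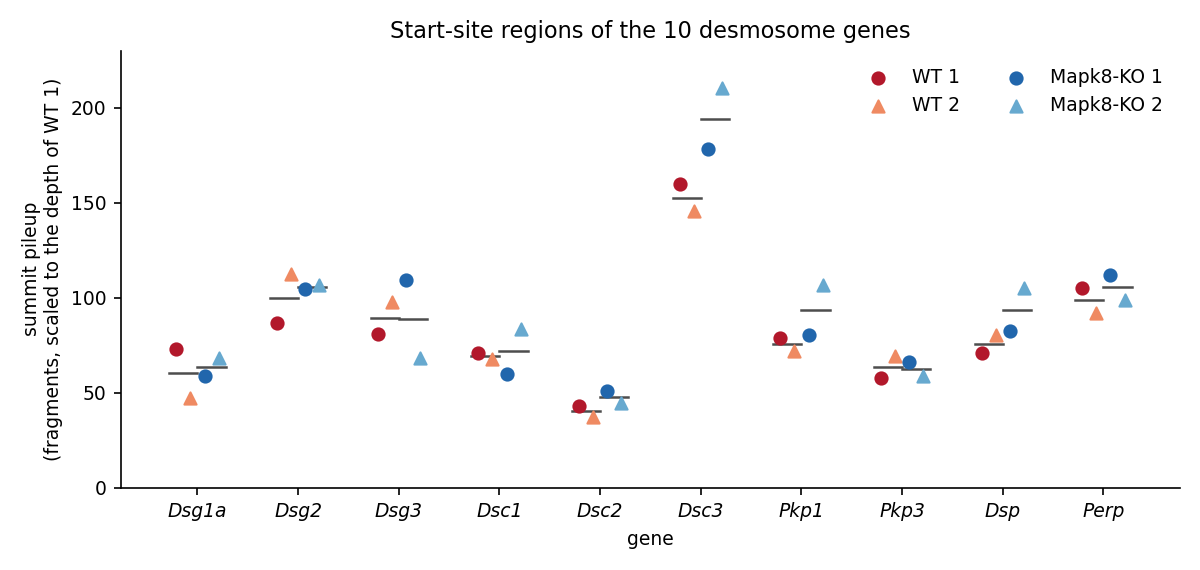
Summit pileup, in fragments scaled to the depth of WT 1, at the start-site region of each gene; points are libraries and short lines the mean of each genotype. Dsc3 stands highest in all 4 libraries, at 145 to 210 fragments, and the genotypes separate without overlap at Dsc2, Dsc3, Pkp1 and Dsp.

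The start sites differed in base composition, which was measured from the reference within 250 bp of each summit. Dsp had 72.5% G and C and a ratio of observed to expected CpG of 0.808, and Dsg2, Perp, Pkp1, Dsc2 and Dsc3 had ratios of 0.54 to 0.737. By contrast, Dsg3 (0.0349), Dsc1 (0.0832), Pkp3 (0.116) and Dsg1a (0.148) were poor in CpG. The median over 11452 promoter regions of coding genes called in all 4 libraries was 0.768.

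At the start sites of the 3 desmogleins the genotypes overlapped. Dsg1a, the skin form whose product is cleaved in staphylococcal scalded skin, was called at chr18:20310645-20311094 with depth-scaled pileups of 73 and 47.5 in WT and 59.1 and 68.1 in Mapk8-KO. Both Mapk8-KO values lay between those of WT (log2 difference 0.11, 95% interval -0.34 to 0.56). The close copies Dsg1b and Dsg1c lie in the same cluster, and 42.4% of the 50-base words in the Dsg1a start-site region occur again within the cluster. Since reads with several alignments had been removed, part of this region may have gone unmeasured, and its values are uncertain. The second region of Dsg1a called in all 4 libraries, in an intron at chr18:20318374-20318933, held no such repeated words and gave 52 and 51.8 in WT and 49.3 and 44.9 in Mapk8-KO.

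Dsg2 is the desmoglein of simple epithelia and of the heart, found at low levels in epidermis. Its start site at chr18:20557891-20558465 had depth-scaled pileups of 87 and 112 in WT and 105 and 107 in Mapk8-KO (log2 difference 0.10, 95% interval -0.26 to 0.46). Only 2 of its 4 regions were called in all 4 libraries, and no peak was called over 42.7 kb from an intron to past its 3' end.

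Dsg3, the basal desmoglein attacked in pemphigus vulgaris, had 7 regions, of which 4 were called in all 4 libraries. The start site at chr18:20509714-20510372 gave 81 and 97.9 in WT and 109 and 68.1 in Mapk8-KO, so the 2 Mapk8-KO libraries enclosed both WT libraries (log2 difference -0.05, 95% interval -0.45 to 0.36). All 4 regions, with the 1 shared with Dsg2, had a log2 difference below 0, with a median of -0.09, and none passed the test. The intronic region at chr18:20514214-20514533 combined a fair pileup with a low rank. It had 69 and 49.0 fragments in WT and 47.5 and 43.3 in Mapk8-KO after depth scaling, and ranked at the 22.1st percentile in WT 1 and the 0.901st in Mapk8-KO 2. Its local background was 12.9 fragments in WT 1.

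Among desmocollin regions called in all 4 libraries, those of Dsc3 were higher in Mapk8-KO and most of those of Dsc2, but not its start site, were lower. None passed the test. Dsc3, the basal desmocollin, had 2 regions called in all 4 libraries and both were higher in Mapk8-KO without overlap. The second, 3' of the gene at chr18:19959091-19960670, gave 90 and 92.2 in WT and 112 and 97.5 in Mapk8-KO (log2 difference 0.20).

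Dsc2, the most widely expressed desmocollin, was lower in Mapk8-KO at 3 of its 4 regions called in all 4 libraries, with a median log2 difference of -0.34. The only summit of the group in a coding exon, at chr18:20034409-20034935, gave 68 and 54.7 in WT and 50.1 and 38.7 in Mapk8-KO. The groups did not overlap, and the difference was -0.47 on the log2 scale (SE 0.23, 95% interval -0.94 to -0.0020; limma, unadjusted p = 0.0491, adjusted p = 0.477). The start site at chr18:20058816-20059756 went the other way, with 43 and 37.4 in WT and 51.0 and 44.9 in Mapk8-KO (log2 difference 0.25). A region 3' of Dsc2, chr18:20026598-20027023, ranked at the 84.8th percentile in WT 1, the 83.7th in Mapk8-KO 1 and the 40.1st in Mapk8-KO 2, and was not called in WT 2.

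Dsc1, the desmocollin of the upper layers, had 5 regions and 2 called in all 4 libraries. Its start site at chr18:20114387-20115255 gave 71 and 67.7 in WT and 60.0 and 83.6 in Mapk8-KO, with the WT values between those of Mapk8-KO (log2 difference 0.03, 95% interval -0.38 to 0.45). The other, in an intron, reached only 14.3 to 26.3 fragments.

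The 6 cadherin members lie in 1 cluster with Dsg1b, Dsg1c and Dsg4, the desmocollins on the minus strand and the desmogleins on the plus strand. From the first member to the last, with 10 kb on each side, the span chr18:19950930-20614521 covers 663.6 kb. It held 58 regions, 8.74 per 100 kb, of which 31 belonged to the members and 32 were called in all 4 libraries. The median log2 difference of those 32 was 0.0052, and 16 were above 0 and 16 below. The longest stretches without a peak were 56.3 kb from Dsg1b into Dsg4, 56.2 kb from an intron of Dsg1a onward, 42.7 kb in and past Dsg2 and 41.2 kb from within Dsg1c onward. Of the 50-base words in the bodies of Dsg1a, Dsg1b and Dsg1c, 22.7%, 19.9% and 13.3% occur again in the cluster. Reads with several alignments had been removed, so peaks in 3 of these stretches could have been missed.

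Between Dsc1 and Dsg1c, where the 2 families point away from each other, 132.5 kb without a member gene held 16 regions, 9 of them called in all 4 libraries. One of these, chr18:20228271-20228941, had the highest mean depth-scaled pileup in the cluster after the start site of Dsc3, and by percentile it stood above Dsc3 in all 4 libraries. It gave 126 and 156 in WT and 151 and 176 in Mapk8-KO after depth scaling and ranked between the 90.3rd and the 96.7th percentile (log2 difference 0.22, limma adjusted p = 0.682). It lies 18399 bp from the nearest start site, that of Dsg1c. It was singled out after its values were seen.

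**Figure D3:**
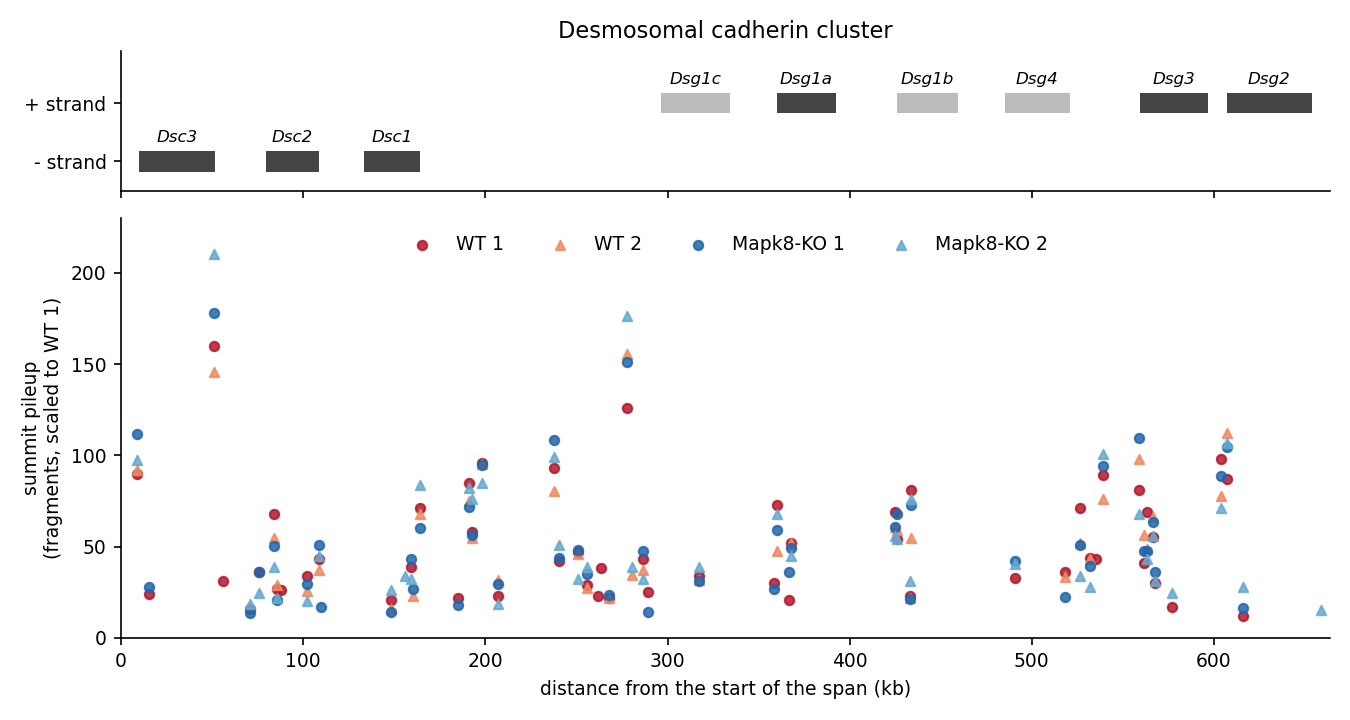
The cadherin cluster, with genes by strand in the upper panel (dark, members; light, Dsg1b, Dsg1c and Dsg4) and the depth-scaled summit pileup of each region by library in the lower panel, against distance from the start of the span in kb. The start site of Dsc3 and 1 region between Dsc1 and Dsg1c stand above all others, and long stretches over Dsg1a and Dsg2 hold no peak.

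Pkp1, the plakophilin of the upper layers whose loss causes skin fragility, had the most regions of any member. It had 13, of which 11 were called in all 4 libraries, and 5 of these were higher and 6 lower in Mapk8-KO (median log2 difference -0.0066). Its start site at chr1:135918992-135919463 gave 79 and 72.0 in WT and 80.6 and 107 in Mapk8-KO. The groups did not overlap, but the gap between the nearest libraries was small beside that between the 2 Mapk8-KO libraries (log2 difference 0.30, 95% interval -0.09 to 0.69).

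Of the 36 desmosome regions called in all 4 libraries, 1 ranked higher in Mapk8-KO by a gap of at least 10 percentile points between the genotypes, and 0 ranked higher in WT. Over all regions the shares were 3.78% and 2.65%. That region, chr1:135925778-135926286, lies 6571 bp from the start of Pkp1. It stood at the 45.6th percentile in WT 1, the 46.6th in WT 2, the 58.2nd in Mapk8-KO 1 and the 73.4th in Mapk8-KO 2. Its depth-scaled pileups were 48 and 46.1 in WT and 45.7 and 72.7 in Mapk8-KO, so that by pileup only Mapk8-KO 2 stood apart (log2 difference 0.29, limma adjusted p = 0.714). With percentiles taken only among regions called in all 4 libraries, 0 desmosome regions passed, and the shares over all regions turned to 4.07% higher in Mapk8-KO and 4.65% higher in WT.

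Pkp3, the plakophilin found throughout the epidermis, had a broad start-site region of 1714 bp, chr7:141078637-141080350. It gave 58 and 69.1 in WT and 66.3 and 58.8 in Mapk8-KO (log2 difference -0.02), with both Mapk8-KO values between those of WT. Its rank was low, from the 12.3rd to the 24.5th percentile, over a local background of 12.8 fragments in WT 1. A region in an intron of the neighbouring Sigirr, chr7:141092154-141092647, gave 42 and 36.0 in WT and 46.6 and 58.8 in Mapk8-KO. It was higher in Mapk8-KO without overlap, and its difference of 0.43 on the log2 scale did not pass the test (SE 0.24, limma adjusted p = 0.556).

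Dsp encodes desmoplakin, the link to the keratin filaments, without which desmosomes do not hold. All 4 of its regions called in all 4 libraries had a log2 difference above 0, with a median of 0.21, but 3 of the 4 overlapped between the genotypes and none passed the test. One of those 3, 3' of Dsp at chr13:38204736-38205250, lies at the start site of Snrnp48. The start site at chr13:38150652-38151600 gave 71 and 80.6 in WT and 82.4 and 105 in Mapk8-KO, without overlap between the groups (log2 difference 0.30, 95% interval -0.09 to 0.68; limma adjusted p = 0.616). The region with the highest rank lay in an intron at chr13:38162543-38163229. It gave 57 and 76.3 in WT and 83.3 and 74.3 in Mapk8-KO, so the groups overlapped there (log2 difference 0.25).

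Perp had 3 regions called in all 4 libraries, and all had a log2 difference above 0, with a median of 0.18. The start site at chr10:18844479-18845305 gave 105 and 92.2 in WT and 112 and 99.0 in Mapk8-KO, with overlapping groups. An intronic region, chr10:18849972-18850492, gave 43 and 44.6 in WT and 60.9 and 57.3 in Mapk8-KO. Here both Mapk8-KO libraries lay above both WT libraries and close to each other, yet the difference of 0.43 did not pass (SE 0.23, limma adjusted p = 0.516). That SE draws mainly on the spread over many regions and not on these libraries.

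Across the 36 regions, 0 passed limma at an adjusted p of 0.05, beside 83 of 40159 regions in the series (0.207%). With the replicate number as a block the count was also 0, while 46 regions of the series passed. At an unadjusted p of 0.05, 2 of 36 passed, the start site of Dsc3 and the coding-exon region of Dsc2, beside 10.4% of all regions. Without the variance trend no region of the series passed at an adjusted p of 0.05. Unadjusted, 0 of the 36 passed in that fit, beside 3883 of 40159 regions. The median log2 difference was 0.09, against 0.0057 over all regions, with 21 above 0 and 15 below. Depth-scaled pileups did not overlap between the genotypes at 10 regions higher in Mapk8-KO and 4 higher in WT, where 20.4% and 20.3% of all regions did so. Among promoter regions, which were 15 of the 36, the shares in the series were 28.1% and 10.7%. Of the 10 regions higher in Mapk8-KO, 5 were promoter regions and 5 lay elsewhere, and all 4 higher in WT lay outside promoters. Whether these counts differ from the shares in the series was not tested.

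The median log2 difference was -0.02 over the 15 cadherin regions and 0.16 over the 21 regions of Pkp1, Pkp3, Dsp and Perp, and whether these sets differ was not tested. Summed over the regions called in all 4 libraries, the depth-scaled pileup of Dsp was 190.0 and 209 in WT and 228 and 241 in Mapk8-KO. The sums of Dsc3, Pkp3 and Perp were likewise higher in both Mapk8-KO libraries, so 4 of 10 genes had sums that did not overlap, beside 24.1% of coding genes with at least 2 such regions. For Pkp3 this rested on 2 regions at the neighbouring Sigirr, 1 in its intron and 1 at its start site, while the Pkp3 start site itself overlapped. No member was higher in WT by this measure (14.9% of those genes).

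**Figure D4:**
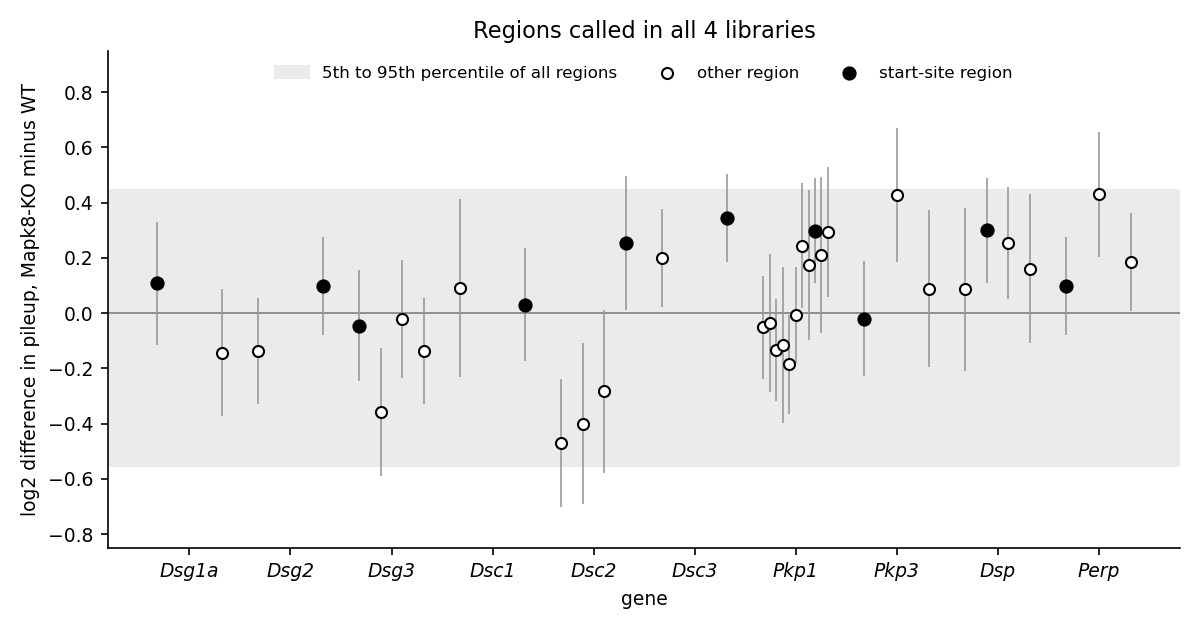
Log2 difference in summit pileup, Mapk8-KO minus WT, for each region called in all 4 libraries, in genome order within each gene; bars are the limma standard errors, filled points the start sites, and the grey band holds the middle 90% of all regions. The 36 differences run from -0.47 to 0.43 and all lie within the band, with Dsc2 holding the lowest and Perp the highest.

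The 100 bp on each side of a region's strongest summit were read, on both strands, for motifs of epidermal regulators. AP-1 is formed by Jun and Fos proteins, and c-Jun is the best known substrate of JNK1. Its motif TGACTCA or TGAGTCA, which are each other's reverse complement, was found at 17 of 64 desmosome regions (26.6%, Wilson 95% interval 17.3 to 38.5%, for counting error only), beside 23.8% of all regions. Of the 10 start sites only those of Pkp3 and Perp held it. The grainyhead motif AACCNGTT was found at 2 regions (3.12%, beside 3.17%) and the p53-family motif at 8 (12.5%, beside 8.78%).

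The 10 desmosome regions with an AP-1 match called in all 4 libraries had a median log2 difference of -0.04, and 3 were above 0. The 26 without a match had a median of 0.10, and 18 were above 0. Over all regions the medians were -0.13 with a match and 0.05 without. The Dsc2 coding-exon region was the lowest of the desmosome regions with a match, at -0.47.

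Sequences are given for regions on which a motif statement rests. The Dsp promoter, chr13:38151044-38151343, is from RefSeq. The 6 other windows are 201 bases centred on the summit, and are the regions of Pkp1, Pkp3, Dsp and Perp, start sites aside, that were called in all 4 libraries and hold an AP-1 or p53-family match. All are on the plus strand of GRCm38 (mm10). Capitals mark the AP-1 and p53-family matches.
Dsp promoter: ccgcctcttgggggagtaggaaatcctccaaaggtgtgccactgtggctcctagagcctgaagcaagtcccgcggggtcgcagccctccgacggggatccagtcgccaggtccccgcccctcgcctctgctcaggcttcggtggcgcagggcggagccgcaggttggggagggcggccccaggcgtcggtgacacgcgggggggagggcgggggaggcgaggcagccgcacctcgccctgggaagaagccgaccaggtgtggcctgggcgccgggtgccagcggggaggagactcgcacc
Dsp intron, chr13:38162882-38163082: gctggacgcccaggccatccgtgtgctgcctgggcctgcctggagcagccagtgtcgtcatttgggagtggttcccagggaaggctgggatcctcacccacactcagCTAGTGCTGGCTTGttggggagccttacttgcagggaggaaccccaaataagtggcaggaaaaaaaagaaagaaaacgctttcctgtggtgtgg
Pkp1 3' region, chr1:135862396-135862596: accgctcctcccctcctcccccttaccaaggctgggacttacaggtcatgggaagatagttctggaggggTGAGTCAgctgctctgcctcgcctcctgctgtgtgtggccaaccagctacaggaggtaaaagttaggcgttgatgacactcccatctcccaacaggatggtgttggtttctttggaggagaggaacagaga
Pkp1 3' region, chr1:135868751-135868951: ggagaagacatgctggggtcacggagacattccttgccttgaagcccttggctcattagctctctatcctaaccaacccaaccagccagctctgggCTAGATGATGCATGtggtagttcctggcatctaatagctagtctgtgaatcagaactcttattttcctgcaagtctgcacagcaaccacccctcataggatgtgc
Pkp1 intron, chr1:135883448-135883648: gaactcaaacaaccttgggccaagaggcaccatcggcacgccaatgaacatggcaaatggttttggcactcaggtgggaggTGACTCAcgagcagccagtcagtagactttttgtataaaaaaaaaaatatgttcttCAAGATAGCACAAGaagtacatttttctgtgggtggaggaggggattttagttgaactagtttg
Pkp1 intron, chr1:135906858-135907058: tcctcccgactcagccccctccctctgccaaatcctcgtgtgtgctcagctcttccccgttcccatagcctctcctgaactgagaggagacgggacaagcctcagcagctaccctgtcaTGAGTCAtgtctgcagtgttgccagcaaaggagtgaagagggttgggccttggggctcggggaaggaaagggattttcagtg
Perp intron, chr10:18850237-18850437: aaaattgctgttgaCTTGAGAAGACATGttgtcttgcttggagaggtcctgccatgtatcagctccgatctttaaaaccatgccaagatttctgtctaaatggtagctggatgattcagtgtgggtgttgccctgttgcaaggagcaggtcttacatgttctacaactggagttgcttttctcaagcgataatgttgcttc

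The Dsp promoter, which held 72.5% G and C around its summit, contains none of the 3 motifs in the window searched. The Dsp intron, the highest-ranking region of that gene, carries a p53-family match centred 14 bp from its summit. At Pkp1, the first and the last windows hold TGAGTCA, the second holds a p53-family match, and the third holds TGACTCA and a p53-family match. The first gave 89 and 83.5 in WT and 93.1 and 74.3 in Mapk8-KO (log2 difference -0.05). The last gave 56 and 41.8 in WT and 57.3 and 57.3 in Mapk8-KO (log2 difference 0.24), where the groups did not overlap but WT 1 lay close to both Mapk8-KO libraries. The Perp intron carries a p53-family match. A match says only that these letters are present.

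Among the other genes of the junction no region passed the test either. Dsg1b, Dsg1c, Dsg4, Jup (plakoglobin), Pkp2, Pkp4 and the cornified-envelope partners Ppl and Evpl had 54 regions, 31 called in all 4 libraries, with a median log2 difference of -0.09. Their groups did not overlap at 9 regions higher in WT and 1 higher in Mapk8-KO, beside 20.3% and 20.4% of all regions. The contrast with the 4 and 10 of the members was not tested. By limma, 0 of 31 passed an adjusted p of 0.05. At an unadjusted p of 0.05, 3 passed (9.68%, beside 10.4% of all regions), 2 higher in WT and 1 in Mapk8-KO. The largest of these was in an intron of Pkp2, the plakophilin of heart and simple epithelia, with 39 and 73.4 in WT and 30.4 and 31.0 in Mapk8-KO (log2 difference -0.80, limma adjusted p = 0.226). A region in an intron of Evpl ranked higher in WT, as 2.65% of all regions did. Its percentiles were 47.8 and 43.2 in WT and 29.6 and 25.7 in Mapk8-KO. The other group most like these, the hemidesmosome genes that fix basal cells to the basement membrane, had 116 regions, of which 40.5% were called in all 4 libraries. Their median log2 difference was -0.03, with 0 calls by limma (4, or 8.51%, at an unadjusted p of 0.05). Genotypes did not overlap at 11 of their regions higher in WT and 6 higher in Mapk8-KO. Adherens and tight junction genes had 108 regions, 52.8% called in all 4 libraries, with a median of 0.02 and 0 calls (4, or 7.02%, at an unadjusted p of 0.05). For these the counts without overlap were 10 higher in WT and 14 higher in Mapk8-KO.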

How the data were processed

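The 4 peak lists, 1 per ATAC-seq library, were analysed. According to the methods, Bowtie2 placed read pairs on mm10, SAMtools removed multiple and poor alignments, and MACS2 (BAMPE format, no control library) called peaks in each library on its own. Peak names state that mitochondrial reads were removed, and no shift for the Tn5 insertion site is stated. The deposited columns give a fold enrichment (a ratio of summit pileup to local background), −log10 p and −log10 q values, a score derived from q, and the summit offset.

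Here the whole-number summit pileup and local background were solved from the deposited fold and −log10 p, and at least 99.996% of peaks gave a whole number within 0.05. Depth per library was the median pileup ratio over 40159 regions called in all 4 libraries. The log2 pileup, without a pseudocount and centred for depth, was fitted with limma 3.58.1 in R 4.3.3, using a variance trend and adjusting p-values over those regions by Benjamini-Hochberg, after tests on simulated data. Counting error is not modelled separately. Peaks were merged with Python 3.11.15. Read counts per region, which the study tested, were not used here.

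For each gene the start-site region, the region of highest mean percentile and any region passing a call were named, and others were chosen for description. Members, lists and tests were chosen with earlier results of these data known. Alternatives covered the q threshold (0.001), list length, overlap, distance to genes, ranking value, rank gap, variance trend, low pileups, centring, motif window, the replicate block and leaving out each library. The authors' fold and significance values were compared only within a list.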

Additional observations from a re-analysis of the deposited data

How the results depend on the processing

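Calls by limma among desmosome regions were 0 in every alternative fit with all 4 libraries. Over all regions, 96 were called with trimmed-mean centring and 0 without the variance trend, where 0 members carries no information. At an unadjusted p of 0.05, trimmed-mean centring and the replicate block each gave 2 of 36 members. The series counts were 4190 and 4457 of 40159. With a mean pileup of at least 20, 1 of 35 members passed unadjusted, beside 3961 of 37333 regions. The median log2 difference stayed positive except without WT 2, at -0.0047, and was 0.14 at most when 1 library was left out. The difference in regions called per library, WT minus Mapk8-KO, was -0.5. Lists of equal length gave -4.5 (exact permutation p = 0.667, n = 2 each). The value was -2 with a cover of at least 50% of the region, 0 with 2 kb around genes and 1 when regions went to the nearest start site. It ran from -7 to 6 with 1 library left out, and was 6 without WT 2 and 4.5 without Mapk8-KO 1, which leave WT with its deeper and Mapk8-KO with its shallower library. Assignment to the nearest start site also gave 1 region called only in WT (2.17% of all regions), 11144 bp from Pkp1. Lists of equal length gave 1 region called only in Mapk8-KO, in Dsg3 (2.32% of all regions), and 3 ranked higher in Mapk8-KO (5.02%). With a cover of at least 50% of the region, the counts were 1 called only in Mapk8-KO (1.98% of all regions) and 0 ranked higher there (3.52%). The single region ranked higher in Mapk8-KO dropped to 0 with 2 kb around genes, with −log10 p ranked, with percentiles among regions called in all 4 libraries and with a gap of 20 points, and rose to 5 with a gap of 5 points (8.44% of all regions). With 1 library left out, 0 to 4 regions were called only in WT (2.56 to 12.1% of all regions) and 0 to 6 only in Mapk8-KO (2.21 to 10.1%). The rank gap was passed by 0 to 5 in favour of WT (5.37 to 20.6%) and by 4 to 7 in favour of Mapk8-KO (7.91 to 17.6%). A group left with 1 library needs only that library for such a call.

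Whether same-numbered libraries were handled together is not stated. After centring for depth, deviations of same-numbered libraries from their group means correlated at 0.0392 over 40159 regions. With 2 pairs this cannot decide it, and both replicate 1 libraries were the deeper of their genotype. With the replicate block, 1 region passed the rank gap in favour of WT (5.77% of all regions) and 4 in favour of Mapk8-KO (6.86%), the limma count remained 0 and the median remained 0.09. Of the values compared for counts, medians and shares, 56 were classed as the same, 26 as moved and 3 as reversed. The reversed ones were all differences in regions called per library. The 56 include counts of 0, which have no sign to change. No named region gained a call in any fit. Leaving out 1 library turned the sign at 7 of the 14 named regions, among them the start sites of Dsg1a (-0.21 to 0.41) and Dsg3 (-0.39 to 0.32), while Dsc3 stayed at 0.25 to 0.46 and the Dsp start site at 0.15 to 0.47. With 2 libraries per genotype, the unadjusted 95% intervals at the start sites extended 0.32 to 0.49 on the log2 scale to each side, and differences just past this size did not pass the adjusted test either.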
